A study of Mus musculus with 15 samples.

Results

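The loss of LHX6 was examined in 9 of the 15 RNA-seq libraries of the series, chosen by their labels alone. These are all 4 libraries labelled *Lhx6* control (replicates 1 to 4) and all 5 labelled *Lhx6* mutant (replicates 1, 2, 3, 5 and 6). Control embryos were Lhx6+/+ and mutants, described as littermates, Lhx6-/-. Embryos of both groups also carried a Cre transgene driven by Nkx2-1 (Nkx2-1-Cre) and the reporter R26R-YFP as fl/fl, on a mixed C57BL6/CBA background, and were taken at E14.5. The *Lhx6* allele is a germline loss in all cells, whereas Nkx2-1-Cre only switches on YFP in cells whose progenitors had expressed *Nkx2-1*. YFP+ cells were sorted from the cortex of 1 embryo per library. The other 6 libraries belong to an *Mtg8* experiment, and they enter here only where the style of library names is compared.

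LHX6 is a LIM homeodomain transcription factor that comes on as interneuron precursors leave the cell cycle in the medial ganglionic eminence (MGE), a progenitor zone of the ventral telencephalon. It acts after NKX2-1 and is known for its part in the tangential migration of these cells to the cortex and in their later somatostatin and parvalbumin fates. Interneurons of the caudal ganglionic eminence (CGE) do not depend on LHX6 and are told apart by genes such as *Adarb2*, *Prox1*, *Sp8* and *Htr3a*.

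Reads on genes numbered 15725405 to 18110287 (median 16643582) in controls and 12218422 to 17452110 (median 16106500) in mutants. All 12 interneuron markers used for the check were detected, with summed normalized counts of 32722 to 43244 in controls and 36583 to 62150.3 in mutants. Mutants 1 and 3 stood apart from the other libraries. Mutant 1 lay at the far end of the first principal component and mutant 3 at that of the second, and limma's library weights were lowest for them, at 0.247 and 0.353. Mitochondrial genes took 4.87% of the reads of mutant 1, against 2.24% to 2.87% in controls and 2.43% to 2.98% in the other mutants. Library names were also of 2 styles. The names of the 4 controls and of mutant 6 carry no date, those of mutants 1, 2, 3 and 5 do, and the labels do not say what the names stand for. Mutant 6 shares the first part of its name with controls 1 and 2, and mutant 2 with mutant 5, while no dated mutant shares it with a control. The labels do not give litters, and each library was treated as unrelated to the others. Mutant 6 is therefore given apart below.

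*Lhx6* itself (chr2:36081953-36105408 on GRCm38, minus strand) had 8441, 5812, 7552 and 7183 normalized counts in controls 1 to 4 and 313, 236, 495, 271 and 340.5 in mutants 1, 2, 3, 5 and 6. A normalized count is the number of reads on a gene divided by a size factor of its library. The mutant mean was 4.57% of the control mean, and every mutant lay below every control, as the labels say. Differences below are differences of the group means of log2(normalized count + 1), mutant minus control. A gene is said to be called, or to have risen or fallen, where limma's Benjamini-Hochberg adjusted p was under 0.05.

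Of 26835 genes in the table, 16727 had a mean of at least 10 and were tested. Of these, 286 were called (1.71%), 114 lower (0.682%) and 172 higher (1.03%). The shares of 0.682% and 1.03% apply beside each count of called list members below, also where 1 member was called. The median difference was -1.56 among the genes that fell and 1.58 among those that rose, against -0.04 for all genes, and 37 and 56 of them changed by at least 2 on the log2 scale. The 5 mutants lay wholly below the 4 controls for 111 of the 114 and wholly above them for 169 of the 172. They did so for 3.03% and 3.19% of all genes tested, called or not. Calls and overlap come from the same values, so the overlap is a description of the calls. In controls the median level was 719 normalized counts for the genes that fell and 166 for those that rose, and in mutants it was 229 and 578. At an unadjusted p under 0.05 were 2132 genes (12.7%), the share against which such counts are set below. On whole reads, edgeR called 111 lower (0.664%) and 169 higher (1.01%), and DESeq2 called 257 (1.54%) and 499 (2.98%). Without mutants 1 and 3, limma called 200 lower (1.2%) and 206 higher (1.23%), with 249 of the 286 among them. In a sorted pool, fewer cells of a type and less RNA per cell cannot be told apart.

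The protein-coding genes with the largest falls and groups that did not overlap were *Pxdc1*, *Mkx*, *Cacng3*, *Prkcq*, *Neto1*, *BC030500*, *Lhx6*, *Calb1*, *Gucy1a1*, *Efcab6*, *Ptprt*, *Cntnap3*, *Abtb2*, *Syndig1* and *Sst*. Those with the largest rises were *Dkk2*, *Pbx3*, *Ibsp*, *Cxcl14*, *Inpp4b*, *Adarb2*, *Trhde*, *Fgf3*, *Fign*, *Ahr*, *Angpt1*, *Pnoc*, *Cbln2*, *Csmd3* and *Tmcc3*. The order among genes with few reads in 1 group depends on the pseudocount. With a pseudocount of 10 the difference of *Mkx* was -3.7 against -6.03, and *Cacng3* (-5.1) and *Neto1* (-4.85) lay ahead of *Pxdc1* (-4.84). Among the rises, *Pbx3* (4.75) and *Cxcl14* (4.23) then lay ahead of *Dkk2*. *Pxdc1*, which encodes a PX domain protein, had 414, 325, 442 and 364 normalized counts in controls 1 to 4 and 0, 4.63, 1.86, 10.7 and 3.71 in mutants 1, 2, 3, 5 and 6 (difference -6.63, standard error 0.6, adjusted p = 5e-05). It went from moderate expression to nearly no reads in every mutant. *Calb1*, the gene of the calcium buffer calbindin, was less uniform. Its controls held 611 to 699 and mutants 1, 3, 5 and 6 held 2.47 to 38.8, but mutant 2 held 326 (difference -4.34, standard error 0.9, adjusted p = 0.0265). Single libraries decided some of these calls. The call was lost for *Calb1* without any 1 control or mutant 3 or 5, for *BC030500* without any 1 control or mutant 5 and for *Fgf3* without control 2, 3 or 4 or mutant 2 or 5, with adjusted p of up to 0.0925, 0.0886 and 0.0767. It was also lost for *Ahr* without control 1 or 3 or mutant 2 and for *Inpp4b* without control 1, with adjusted p of up to 0.0695 and 0.0513.

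**Figure D1:**
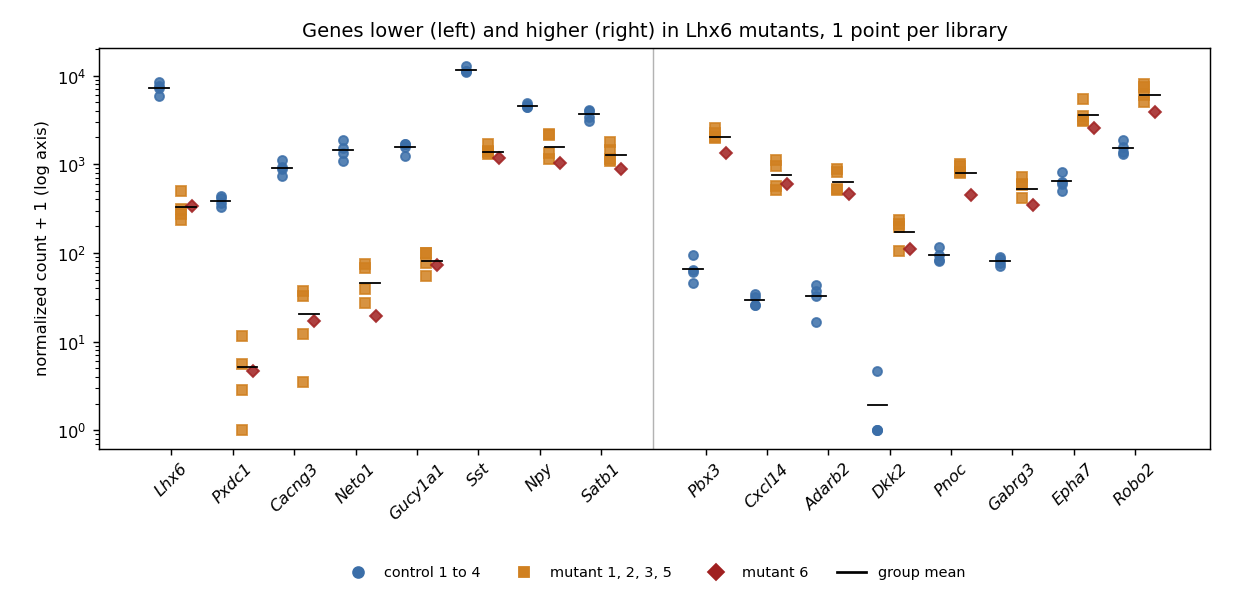
Normalized count + 1 (log axis) of 16 genes in each of the 9 libraries, with controls as circles, mutants 1, 2, 3 and 5 as squares, mutant 6 as diamonds and group means as bars. For each gene shown, mutants and controls do not overlap, and mutant 6 lies on the side of the other mutants.

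Of 24 transcription factors of the MGE lineage tested, *Lhx6*, *Npas1* and *Satb1* fell, *Bcl6*, *Dlx6* and *Dlx5* rose, and 18 were not called (median 0.03). *Satb1*, which encodes a chromatin organizer needed in somatostatin interneurons, had 4064, 3086, 3967 and 3421 normalized counts in the controls and 1774, 1146, 1072, 1429.9 and 880.3 in mutants 1, 2, 3, 5 and 6 (difference -1.56, standard error 0.19, adjusted p = 0.000645). The groups did not overlap, and mutant 6 was the lowest. *Maf*, a bZIP factor of migrating MGE cells, had 2531 to 3918 in controls and 2241 to 9444 in mutants and was not called (difference 0.52, standard error 0.31, adjusted p = 0.506). *Npas1*, a bHLH-PAS factor, fell by 2.0 on the log2 scale. *Nkx2-1*, the master gene of the MGE, and *Sox6*, which acts after LHX6, were not called, with differences of 0.21 (standard error 0.19, adjusted p = 0.656) and -0.31 (standard error 0.16, adjusted p = 0.434). *Lhx8*, a LIM homeodomain gene of the cholinergic lineage, lay at 4.61 to 25.7 in controls and 26.08 to 139 in mutants. Its groups did not overlap, but it was not called (difference 2.05, standard error 0.55, adjusted p = 0.0982).

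The *Dlx* homeobox genes, which hold the GABAergic programme of the ganglionic eminences, did not move as one. *Dlx5* lay at 1932 to 2301 in controls and 3828 to 5357 in mutants (difference 1.02, standard error 0.13, adjusted p = 0.000719). *Dlx6*, its neighbour on chromosome 6, lay at 551 to 735 and 1279 to 2939 (difference 1.66, standard error 0.21, adjusted p = 0.000979). Both rose in every mutant. *Dlx1* and *Dlx2*, the linked pair on chromosome 2, differed by 0.08 (standard error 0.2) and 0.02 (standard error 0.19) and were not called. The sign turned with TMM factors for *Dlx2* and with library weights for both. *Bcl6*, a transcriptional repressor, lay at 36.8 to 70.9 in controls and 193 to 439 in mutants (difference 2.68, standard error 0.3, adjusted p = 0.000308).

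Genes of CGE identity split. Of 10 transcription factors tested, the nuclear receptor gene *Rora* was called, and it fell (difference -2.08, standard error 0.35). *Nr2f1*, *Nr2f2*, *Sp8* and *Prox1*, often used to define the CGE, were not called, with differences of 0.61, 0.88, 1.03 and -0.59. *Nr2f2* was higher in all mutants (981 to 2009.6) than in all controls (563 to 840.2) at an adjusted p of 0.0676. It was called higher when mutant 6 was left out (difference 0.98). *Sp8* was uneven, at 170.4 to 240.2 in controls and 212, 692, 217, 446 and 908 in mutants 1, 2, 3, 5 and 6. The authors, who used DESeq2, counted *Sp8* among the genes upregulated in *Lhx6* mutants. Of 13 other CGE genes tested, *Npas1*, which also stands in the MGE list, and the serotonin receptor gene *Htr3a* fell, and *Cxcl14*, *Adarb2* and *Ndnf* rose. *Cxcl14*, a chemokine gene, had 25, 33.7, 24.9 and 30.8 in controls and 509.8, 566, 1119, 946 and 602 in mutants (difference 4.6, standard error 0.26, adjusted p = 1.03e-06). *Adarb2*, which encodes a relative of the RNA-editing enzymes, had 42.3, 36.3, 15.7 and 31.6 in controls and 527, 513, 876, 806 and 461 in mutants (difference 4.33, standard error 0.31, adjusted p = 6.9e-06). Neither gene showed any overlap between groups. *Ndnf*, a secreted factor of layer-1 interneurons, rose by 2.42 (standard error 0.37). *Reln*, *Calb2*, *Scgn* and *Cnr1* differed by 0.2, -0.6, 0.04 and -0.35 and were not called. The call of *Htr3a* (difference -1.65, standard error 0.37, adjusted p = 0.0451) was lost without any 1 control or mutant 3, with adjusted p of up to 0.174.

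TALE homeobox genes encode cofactors of HOX and other homeodomain proteins. Of 11 tested, *Pbx3* rose, *Mkx* fell and 9 were not called. *Pbx3* (chr2:34171457-34373142, minus strand) had 45.2, 93.9, 62.6 and 59.9 normalized counts in the controls and 2579, 2004, 2226, 1950.1 and 1321 in mutants 1, 2, 3, 5 and 6 (difference 4.94, standard error 0.24, adjusted p = 1.99e-07). It was thus low in all controls and high in all mutants, with mutant 6 the lowest of these. *Mkx*, an atypical member known from tendon, lay at 95.8 to 197 in controls and 0 to 1.24 in mutants 2, 3, 5 and 6, with 14.8 in mutant 1 (difference -6.03, standard error 0.77, adjusted p = 0.000979).

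A further list of 14 homeobox and zinc finger factors had a median difference of 1.32, with 5 members up and 1 down. *Vax1*, a ventral forebrain homeobox gene, lay at 9.41 to 23 in controls and 74.3 to 145 in mutants (difference 2.63, standard error 0.34, adjusted p = 0.00112). The teashirt genes *Tshz1* and *Tshz3* moved in opposite directions. *Tshz1* lay at 475 to 693 in controls and 1609.6 to 3775 in mutants (difference 2.07, standard error 0.22), and *Tshz3* at 874 to 1123 and 183 to 354 (difference -1.93, standard error 0.22). *Zfp536*, *Casz1* and *Bcl11b* rose by 1.5, 1.8 and 1.43. The call of *Casz1* was lost without control 1, 3 or 4 or mutant 3 or 5 (adjusted p of up to 0.111). Of 7 LIM homeodomain genes other than *Lhx6*, limma and edgeR called 0, DESeq2 called *Lhx8*, and 1 had an unadjusted p under 0.05. Of 12 LIM cofactors and MTG proteins, *Runx1t1*, the gene of MTG8, and *Ssbp3*, which stabilizes LDB proteins, rose by 1.23 (standard error 0.19) and 0.67 (standard error 0.12). *Runx1t1* had 7232, 6394, 8945 and 7226 in controls and 26527, 15377, 16613, 19119 and 12227 in mutants, with mutant 6 the lowest of the mutants but above every control. *Ldb1*, *Cbfa2t2* and *Cbfa2t3* differed by 0.4, -0.29 and -0.35 and were not called. The call of *Ssbp3* was lost without control 1 or 2 (adjusted p of up to 0.0629).

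RefSeq promoter windows, from 250 bases before to 50 bases after a start on GRCm38.p6, were searched for TAATTA, a core bound by many homeodomain proteins that reads alike on both strands. Of the genes that fell, 87 had a window and 1 held TAATTA (1.15%). Of those that rose, 106 had a window and 6 held it (5.66%), among them *Adarb2* and *Zfp536*. The share was 3.28% among all genes tested with a window and 6.12% among all genes with one. The windows of *Adarb2* (chr13:8202616-8202915, plus strand) and *Zfp536* (chr7:37769703-37770002, minus strand) are shown because both are described above, with TAATTA in capitals.
*Adarb2*: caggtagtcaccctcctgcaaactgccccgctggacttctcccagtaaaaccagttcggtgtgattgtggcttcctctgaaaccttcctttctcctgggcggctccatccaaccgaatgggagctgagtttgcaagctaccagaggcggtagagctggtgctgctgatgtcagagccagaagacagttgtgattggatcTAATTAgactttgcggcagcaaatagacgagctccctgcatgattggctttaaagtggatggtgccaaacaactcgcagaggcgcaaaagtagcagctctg
*Zfp536*: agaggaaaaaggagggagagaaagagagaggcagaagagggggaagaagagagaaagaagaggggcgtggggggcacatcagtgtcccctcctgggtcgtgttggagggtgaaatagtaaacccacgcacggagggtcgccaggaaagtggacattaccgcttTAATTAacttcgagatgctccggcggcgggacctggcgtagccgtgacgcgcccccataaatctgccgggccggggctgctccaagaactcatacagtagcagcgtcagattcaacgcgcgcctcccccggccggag
The core begins 51 bases before the start in *Adarb2* and 87 bases before it in *Zfp536*. These are letters in a window, and binding was not measured here.

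Of 19 secreted peptides and peptide-processing genes tested, 5 fell and 3 rose (median -0.53). *Sst*, the somatostatin gene, had 11145, 11131, 10942 and 12780.0 normalized counts in controls and 1291, 1401, 1696, 1369.8 and 1180.0 in mutants 1, 2, 3, 5 and 6 (difference -3.06, standard error 0.13, adjusted p = 9.01e-08). The spread within each group was small beside the gap between them, and mutant 6 was the lowest. *Npy*, which encodes neuropeptide Y, had 4427, 4417, 4591 and 4862 in controls and 2148, 1334, 1139, 2213 and 1041 in mutants (difference -1.61, standard error 0.22, adjusted p = 0.00153). Every mutant was lower than every control, with mutants 1 and 5 the highest of the 5. The neurexophilin genes *Nxph2* and *Nxph1*, whose products bind alpha-neurexins, fell by 2.92 and 1.42 on the log2 scale, and *Pcsk2*, a convertase that cuts prohormones, fell by 1.56. *Pnoc*, the gene of nociceptin, had 116, 82.4, 94 and 80.4 in controls and 1001, 959, 793, 815 and 453 in mutants (difference 3.06, standard error 0.24, adjusted p = 1.63e-05). *Cort* and *Tac1* differed by -2.84 and -3.71 and were not called, with standard errors of 0.81 and 1.18 and adjusted p = 0.125 and adjusted p = 0.176. *Prok2* and *Resp18* rose by 1.67 and 1.17. The call of *Prok2* was lost without control 1, 3 or 4 or mutant 5 (adjusted p of up to 0.0681) and that of *Resp18* was lost without any 1 control or mutant 2 or 5 (up to 0.145). Of 11 peptide receptors tested, limma and edgeR called 0 and DESeq2 1, and 2 had an unadjusted p under 0.05.

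The promoter window of *Sst* (chr16:23890795-23891094, minus strand) holds the cyclic AMP response element TGACGTCA, the textbook site of CREB, which reads alike on both strands and was searched for after the values were seen. The element stood in the windows of 4 of 87 genes that fell (4.6%: *Arl4d*, *Olfm2*, *Sst* and *Wsb1*), 0 of 106 that rose, 3.75% of all genes tested with a window and 2.03% of all genes with one. The call of *Olfm2*, which encodes an olfactomedin protein, was lost without any 1 control or mutant 2 or 5 (adjusted p of up to 0.0793). The element of *Sst* is in capitals below and begins 48 bases before the start.
*Sst*: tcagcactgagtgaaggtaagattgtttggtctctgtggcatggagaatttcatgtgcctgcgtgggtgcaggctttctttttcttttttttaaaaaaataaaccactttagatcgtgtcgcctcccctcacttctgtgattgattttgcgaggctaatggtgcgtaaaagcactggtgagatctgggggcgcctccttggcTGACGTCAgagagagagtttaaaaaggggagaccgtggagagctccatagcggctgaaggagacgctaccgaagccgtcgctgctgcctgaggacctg

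Of 17 AMPA receptor subunits and partners tested, *Cacng3*, *Syndig1*, *Gria1* and *Gria4* fell and 0 rose, while the median of the 17 was 0.38. *Cacng3*, an auxiliary subunit of the TARP family, had 1105, 730.3, 939.6 and 876 in controls and 2.47, 11.1, 31.7, 35.8 and 16.1 in mutants 1, 2, 3, 5 and 6 (difference -5.87, standard error 0.56, adjusted p = 9.29e-05). All 5 mutants lay far below every control. The other TARP genes tested were not called, with differences of 0.62, 0.6, 0.45, 0.41 and 0.57 for *Cacng2*, *Cacng4*, *Cacng5*, *Cacng7* and *Cacng8*. *Syndig1*, whose product promotes AMPA receptors at young synapses, lay at 1130.0 to 1539 in controls and 118 to 232 in mutants (difference -3.08, standard error 0.21). The pore subunit gene *Gria1* lay at 6583 to 10272 and 2101 to 3926 (difference -1.44, standard error 0.18). The call of *Gria4* (difference -0.98) was lost without any 1 control or mutant 2 or 5, with adjusted p of up to 0.169.

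In the kainate receptor group of 7, *Neto1* and *Grik2* fell. *Neto1*, an auxiliary subunit, had 1531, 1094, 1891 and 1322 in controls and 38.4, 73.1, 66.1, 26.2 and 18.57 in mutants 1, 2, 3, 5 and 6 (difference -5.16, standard error 0.37, adjusted p = 6.9e-06). Mutant 6 was the lowest, and the groups were far apart. The pore subunit gene *Grik2* lay at 506 to 687 in controls and 198 to 324 in mutants (difference -1.11, standard error 0.19). *Neto2*, the paralogue of *Neto1*, differed by -0.18 and was not called. Of 11 NMDA, delta and metabotropic receptor genes, limma and edgeR called 0 and DESeq2 1, and 4 had an unadjusted p under 0.05 (12.7% of all genes). *Slc1a2*, the glutamate transporter GLT-1, was the 1 member of 5 transporters called. It had 301, 286, 327 and 275 in controls and 1831, 1825, 1992, 1689.5 and 1056 in mutants (difference 2.46, standard error 0.19, adjusted p = 1.13e-05), with mutant 6 the lowest mutant and still above every control.

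Of 13 GABA and glycine receptor subunits tested, *Gabrg3* and *Gabra2* rose and 0 fell (median 0.35). *Gabrg3*, a gamma subunit of the GABA-A receptor, had 84.6, 76.2, 89.4 and 71 in controls and 577, 604, 714, 412 and 347 in mutants 1, 2, 3, 5 and 6 (difference 2.67, standard error 0.23, adjusted p = 3.99e-05). *Gabra2*, an alpha subunit, lay at 461 to 711.4 in controls and 1783 to 3586 in mutants 1, 2, 3 and 5, with 829.6 in mutant 6 (difference 1.66, standard error 0.33, adjusted p = 0.0199). Of 7 genes of GABA synthesis, transport and chloride handling, *Abat*, which encodes the enzyme that degrades GABA, rose by 1.08 and 6 were not called. *Gad1* and *Gad2*, which make GABA, and *Slc32a1*, its vesicular transporter, differed by -0.28, 0.35 and 0.92. The call of *Gabra2* was lost without any 1 control or mutant 5 (adjusted p of up to 0.084), and the call of *Abat* was lost without any 1 control or mutant 5 (up to 0.103).

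**Figure D2:**
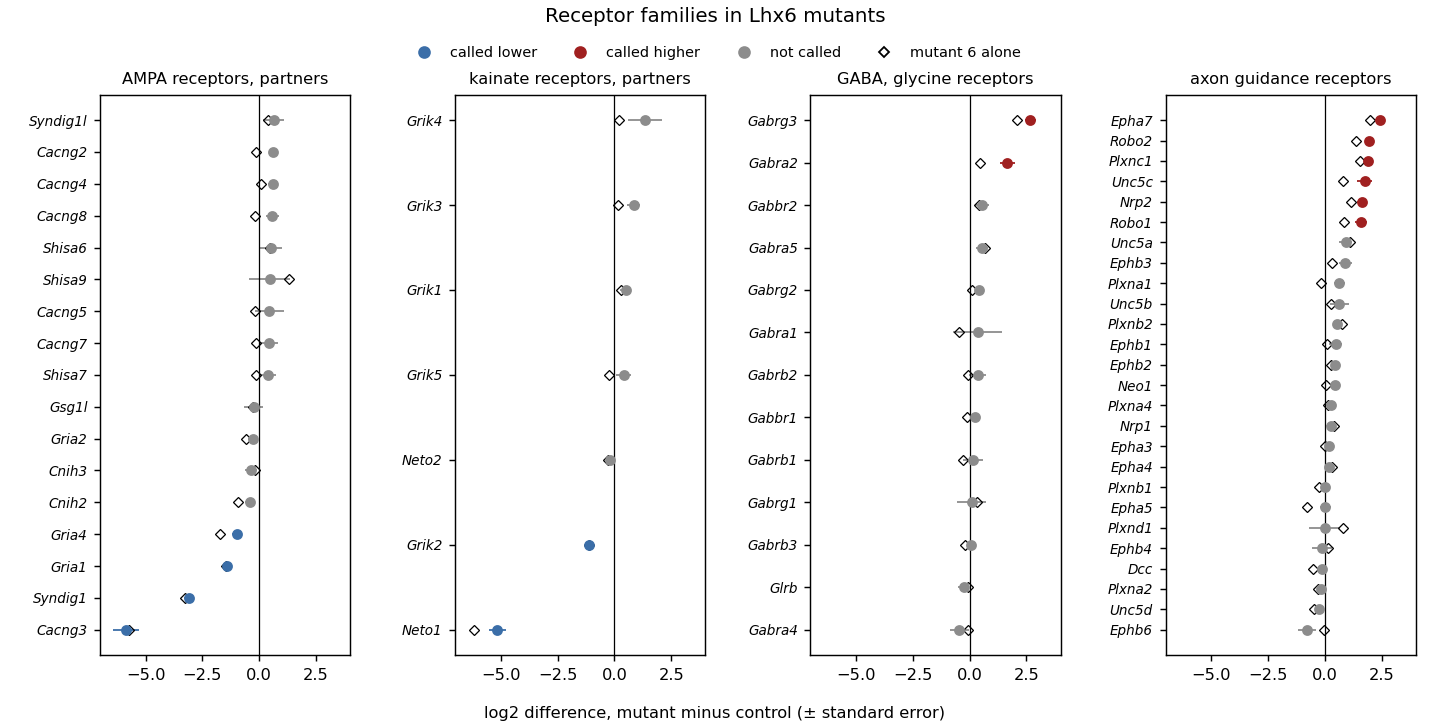
Log2 difference between mutants and controls, with its standard error, for each tested member of 4 receptor families, coloured by the call, with mutant 6 alone as an open diamond. The 6 called genes of the AMPA and kainate groups lie to the left of 0, and the 2 called GABA receptor genes and 6 called guidance receptors lie to the right.

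Of 47 potassium channel genes tested, *Kcns3*, *Kcnmb2*, *Dpp10*, *Kcnk2* and *Kcnd3* fell, *Kcnn1* rose and 41 were not called. Among all genes tested, 0.682% fell and 1.03% rose. Of 32 sodium, calcium, HCN and TRPC channel genes, limma and edgeR called 0 and DESeq2 3, and 7 had an unadjusted p under 0.05 (12.7% of all genes). *Trpc6*, a cation channel gene of the TRPC family, lay at 11.5 to 31.9 in controls and 0 to 1.24 in mutants, but its mean over all libraries was under 10 and it was not tested. It is 1 of 5 among 117 listed genes too low to be tested that lay lower in all mutants than in all controls, beside *Cdh20*, *Cdh9*, *Doc2a* and *Pde2a* (4.27%), and 0 lay higher, where 0.791% and 0.603% of all 10108 genes under the minimum did so. *Kcnmb2*, an auxiliary subunit of calcium-activated BK channels, had 549.9, 429, 554 and 608 in controls and 125, 39.8, 210.5, 134 and 135 in mutants (difference -2.21, standard error 0.38). *Dpp10* and *Kcnd3*, an auxiliary and a pore subunit of A-type channels, fell by 1.65 and 1.28 on the log2 scale, and the leak channel gene *Kcnk2* fell by 1.57. *Kcnn1*, a small-conductance calcium-activated channel, lay at 36.5 to 76.5 in controls and 141 to 226 in mutants (difference 1.61, standard error 0.28). *Kcns3*, a modifier of delayed rectifiers, had 0 in 4 mutants and 35.9 in mutant 1, within the controls' range of 35.1 to 105. Its call was lost without any 1 control or mutant 2, 3 or 5, with adjusted p of up to 0.17 for *Kcns3*. *Kcnc2*, which encodes the fast delayed rectifier Kv3.2, lay at 238 to 391 in controls and 0 to 90.3 in mutants and was not called (difference -3.75, standard error 1.0, adjusted p = 0.0959).

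Of 50 second messenger genes tested, 6 fell and 2 rose, against 0.682% and 1.03% of all genes tested. Both subunits of the guanylate cyclase that senses nitric oxide fell. *Gucy1a1* had 1701, 1247, 1701 and 1553 in controls and 75.5, 54.6, 99.7, 97.8 and 71.8 in mutants 1, 2, 3, 5 and 6 (difference -4.28, standard error 0.21, adjusted p = 2.04e-07). *Gucy1b1*, its neighbour on chromosome 3, lay at 209 to 318 in controls and 86.6 to 139.9 in mutants (difference -1.28, standard error 0.23), a smaller difference. *Prkcq*, which encodes protein kinase C theta, had 311, 338, 308 and 266 in controls and 13.6, 1.85, 0, 20.3 and 27.2 in mutants (difference -5.33, standard error 0.84, adjusted p = 0.00441), while the conventional isoform gene *Prkca* rose by 1.68 (standard error 0.2). *Dgkg*, a diacylglycerol kinase, and *Akap7*, an anchor of protein kinase A, fell by 1.67 and 2.06 on the log2 scale. *Rgs10*, which shortens G protein signals, rose by 1.7. The call of *Gucy1b1* was lost without control 1 or 4 (adjusted p of up to 0.064).

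In axon guidance, 6 of 26 receptors rose and 0 fell, and 1 of 31 ligands fell and 0 rose. Of all genes tested, 1.03% rose and 0.682% fell. The median difference was 0.46 over the receptors and 0.32 over the ligands. *Epha7*, an ephrin receptor, had 819, 635, 601 and 497 in controls and 3132, 3037, 5493, 3536 and 2533 in mutants 1, 2, 3, 5 and 6 (difference 2.44, standard error 0.21, adjusted p = 4.09e-05). The Slit receptor genes *Robo2* and *Robo1* rose by 1.95 (standard error 0.2) and 1.6 (standard error 0.26), *Robo2* from 1306 to 1852 in controls to 3879 to 7929 in mutants. The semaphorin receptor genes *Plxnc1* and *Nrp2* rose by 1.92 and 1.62, and the netrin receptor gene *Unc5c* by 1.76. For all 6 the mutants lay above all controls, and mutant 6 was the lowest mutant for 6 of them. In mutant 6 alone *Epha7*, *Robo2*, *Plxnc1*, *Nrp2*, *Unc5c* and *Robo1* differed from the controls by 2.01, 1.36, 1.54, 1.16, 0.79 and 0.83. In mutants 1, 2, 3 and 5 the differences were 2.55, 2.1, 2.02, 1.73, 2.01 and 1.8, in the same order. *Nrp1* and *Dcc* differed by 0.26 and -0.12 and were not called. The ligand that fell was *Sema3a*, a repellent semaphorin, with 1297, 885, 1076 and 915 in controls and 159.6, 181, 116, 197 and 350.4 in mutants (difference -2.45, standard error 0.27, adjusted p = 0.000308). Its highest mutant was mutant 6.

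Of 15 chemokine and growth factor ligands tested, *Cxcl14* and *Angpt1* rose and 0 fell. *Angpt1*, the gene of angiopoietin-1, had 24, 10.6, 16.6 and 21.4 in controls and 162, 158, 229, 143 and 102 in mutants 1, 2, 3, 5 and 6 (difference 3.07, standard error 0.33, adjusted p = 0.000267). Of 15 receptors, *Alk*, a receptor tyrosine kinase gene, fell, from 40.2 to 57.7 in controls to 3.71 to 12.11 in mutants. The CXCL12 receptor genes, which act in the migration of MGE cells, were not called. *Ackr3* lay at 492 to 757 in controls and 124 to 196 in mutants 2, 3, 5 and 6, with 514 in mutant 1 (difference -1.45, standard error 0.34, adjusted p = 0.0519). *Cxcr4* had 201, 159.5, 203 and 652 in controls and 208, 94.4, 87.5, 148 and 103 in mutants (difference -1.07, standard error 0.4, adjusted p = 0.27), with control 4 far above the other controls. *Erbb4*, the neuregulin receptor gene, differed by 0.02 (standard error 0.23), a sign that turned with TMM factors and library weights, and *Nrg1* differed by -0.48. The call of *Alk* was lost without any 1 control (adjusted p of up to 0.0951).

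Of 113 adhesion molecules and synaptic organizers tested, 7 fell and 10 rose, against 0.682% and 1.03% of all genes tested. Several families moved both ways. In the immunoglobulin superfamily, *Ntm*, an IgLON gene, had 694, 847, 655 and 560.1 in controls and 3529, 3181, 4131, 4471 and 3284 in mutants 1, 2, 3, 5 and 6 (difference 2.43, standard error 0.16, adjusted p = 2.73e-06). *Chl1*, a relative of L1, went the other way, with 6367, 4512, 6325 and 4861 in controls and 1414, 1132, 1684, 1701 and 1511 in mutants (difference -1.89, standard error 0.16, adjusted p = 3.05e-05). The sidekick genes *Sdk1* and *Sdk2* rose by 2.53 and 1.56. In the contactin-associated family, *Cntnap3* fell by 3.4 (standard error 0.5), with mutant 6 the highest mutant at 167, and *Cntnap4* and *Cntnap2* rose by 1.48 and 1.13. *Cbln2*, a secreted organizer that binds neurexins, had 80.8, 83.3, 103 and 88.9 in controls and 714, 504, 1125, 684 and 787 in mutants (difference 3.04, standard error 0.22, adjusted p = 8.2e-06). The receptor tyrosine phosphatase genes *Ptprt* and *Ptprd* fell by 3.55 and 2.11, and *Ptprf* rose by 0.95. *Elfn1*, which encodes a leucine-rich repeat protein of interneuron synapses, fell by 1.89. Of 25 cadherins, *Pcdh9*, a protocadherin gene, was called and rose by 1.72. *Cdh20* and *Cdh9* were too low to be tested, at 11.5 to 20.5 and 6.84 to 16.8 in controls and 0 to 1.94 and 0 to 3.88 in mutants. The call of *Sdk2* was lost without control 1, 3 or 4 or mutant 2 or 5 (adjusted p of up to 0.095).

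Of 37 genes of Wnt signalling tested, 4 rose and 0 fell. *Dkk2*, a secreted modulator of the LRP co-receptors, had 0, 0, 3.68 and 0 in controls 1 to 4 and 193, 105, 211, 232 and 109 in mutants 1, 2, 3, 5 and 6 (difference 6.78, standard error 0.57, adjusted p = 3.05e-05). It was almost without reads in controls and present in every mutant, and the size of its difference depends on the pseudocount (3.99 with a pseudocount of 10). *Wnt5a*, a ligand of the non-canonical branch, had 156, 102, 146 and 122 in controls and 1047, 460.0, 509, 653 and 287 in mutants (difference 2.05, standard error 0.31). Its receptor gene *Ror2* rose by 1.57 (standard error 0.26), and *Wls*, whose product carries Wnt proteins to the cell surface, by 1.18 (standard error 0.16). *Axin2* and *Lef1*, textbook targets of the canonical branch, differed by 0.35 and 0.18 and were not called.

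Of 14 BMP and TGF-beta ligands and antagonists tested, 2 fell and 1 rose. *Tgfb3* had 329, 189, 356 and 339.5 in controls and 34.6, 14.8, 57.7, 72.7 and 27.2 in mutants (difference -3.0, standard error 0.42, adjusted p = 0.00182). *Fstl5*, a follistatin relative, fell by 1.68 on the log2 scale and *Bmper*, which encodes a BMP-binding protein, rose by 2.03. Of 20 receptors and effectors, limma and edgeR called 0 and DESeq2 2, and 4 had an unadjusted p under 0.05 (12.7% of all genes). Of 22 Notch genes, the coactivator gene *Maml3* and the receptor gene *Notch2* rose, by 1.69 (standard error 0.26) and 0.99 (standard error 0.2). Of 10 hedgehog genes, limma and edgeR called 0 and DESeq2 1, and 3 had an unadjusted p under 0.05 (12.7% of all genes). Of 21 matrix and secreted proteins, 5 fell and 3 rose. *Thbs1*, the gene of thrombospondin-1, had 1978, 1759, 2276 and 1947 in controls and 320.5, 320.2, 271, 291 and 208 in mutants (difference -2.83, standard error 0.16, adjusted p = 1.08e-06), with mutant 6 the lowest. *Ibsp*, a sialoprotein gene known from bone, lay at 0 to 10.6 in controls and 100.3 to 165 in mutants 2, 3, 5 and 6, with 19.8 in mutant 1. *Vldlr*, a reelin receptor gene, rose by 1.47 (standard error 0.17), and the other 6 genes of that pathway were not called. The call of *Notch2* was lost without control 1, 2 or 4 or mutant 2 (adjusted p of up to 0.0945).

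Of 38 genes of presynaptic release tested, 2 fell and 4 rose, against 0.682% and 1.03% of all genes tested. *Rph3a*, a Rab3 effector on synaptic vesicles, lay at 709.8 to 1164 in controls and 152 to 288 in mutants (difference -2.06, standard error 0.23), and *Rims1*, an active zone scaffold, at 141 to 222 and 321 to 620.0 (difference 1.34, standard error 0.23). Of 41 cytoskeletal genes of migrating neurons, 4 fell and 4 rose. *Fign*, which encodes the microtubule-severing protein fidgetin, had 60.6, 41.7, 56.2 and 41 in controls and 535, 640.5, 700.4, 646 and 384 in mutants 1, 2, 3, 5 and 6 (difference 3.51, standard error 0.23, adjusted p = 3.54e-06). *Shtn1*, the gene of shootin-1, rose by 1.59, and the small GTPase genes *Arl4d* and *Arl4a* fell by 1.86 and 1.09 on the log2 scale. Of 21 immediate early genes, *Myc* fell and *Dusp4* and *Btg1* rose. The call of *Myc* was lost without control 1, 2 or 4, that of *Dusp4* was lost without any 1 control or mutant 2 or 5 and that of *Btg1* was lost without control 1 or 2, with adjusted p of up to 0.0787, 0.135 and 0.0547.

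**Figure D3:**
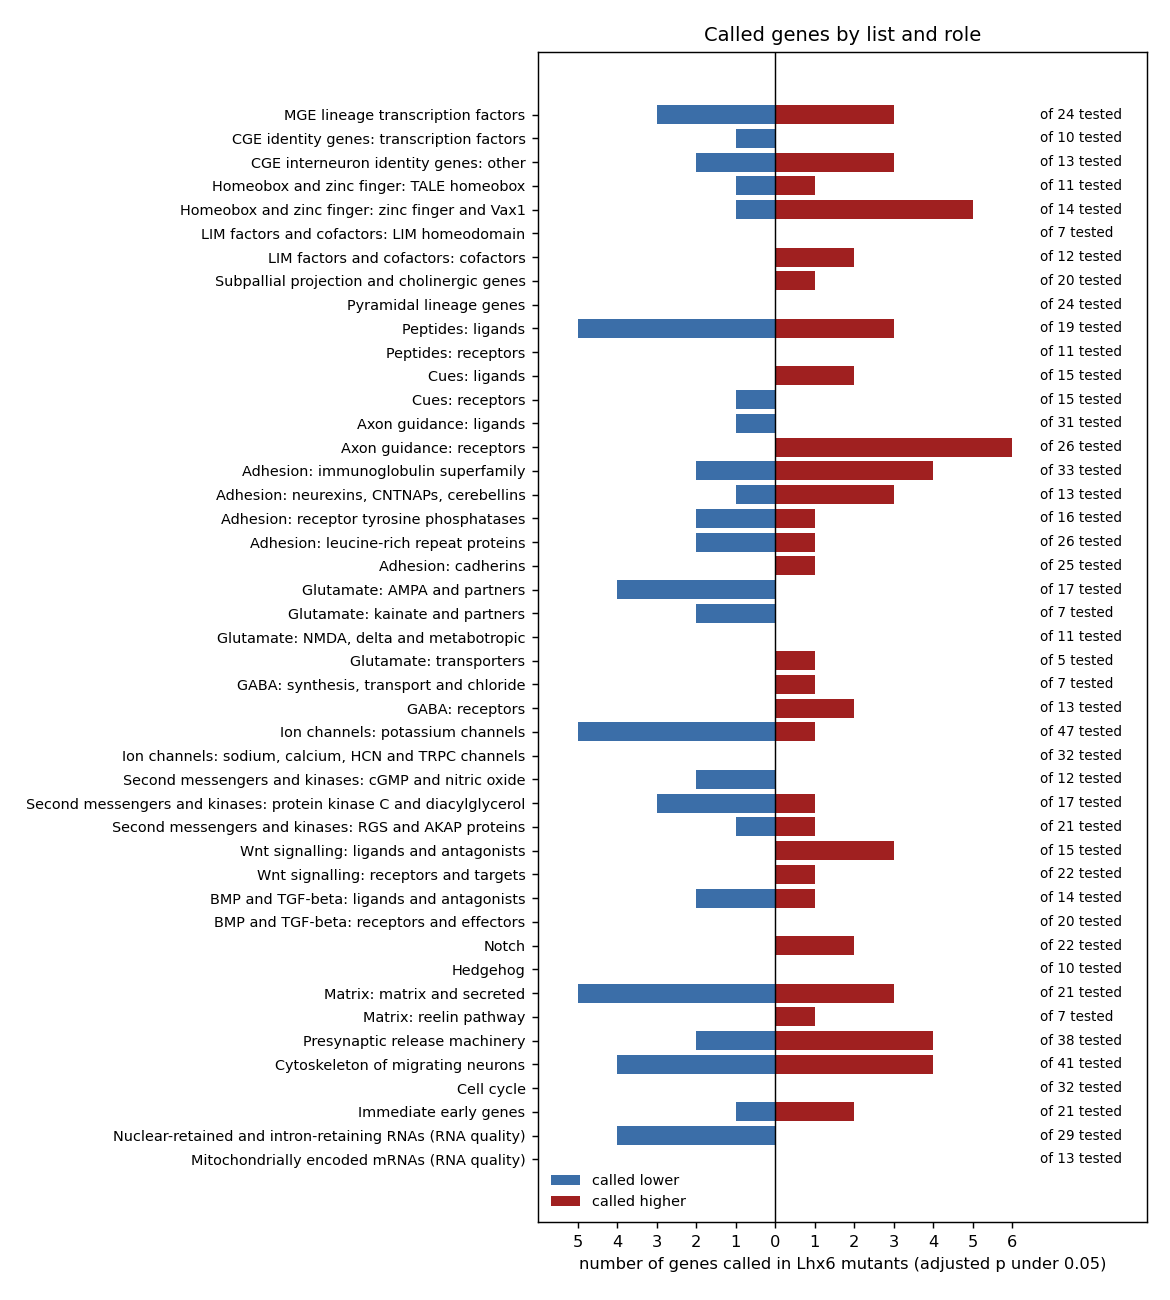
Number of genes called lower (bars to the left) and higher (bars to the right) in *Lhx6* mutants for each list and role, with the number tested at the right. Guidance receptors hold 6 rises and 0 falls of 26, and AMPA receptors with their partners hold 4 falls and 0 rises of 17. Among all genes tested, 0.682% were called lower and 1.03% higher.

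Markers of 7 other cell types had 0 genes called by limma or edgeR, and DESeq2 called 1, a radial glia marker. At an unadjusted p under 0.05 were 4 of 10 pyramidal lineage markers and 0 or 1 in each of the other 6 lists (12.7% of all genes). Summed normalized counts of radial glia markers were 8924 to 10941 in controls, 8077 to 13724 in mutants 1, 2, 3 and 5 and 15441 in mutant 6. Those of the pyramidal lineage were 15892 to 21462 in controls, 12677 to 15079 in mutants 1, 2, 3 and 5 and 17796 in mutant 6. The 4 mutants with dated names thus lay below all controls for this list, and mutant 6 lay among the controls. Of 24 pyramidal lineage genes in a wider list, limma and edgeR called 0, 9 had an unadjusted p under 0.05 (12.7% of all genes) and 15 were below 0 (median -0.19). DESeq2 called 5, of which *Cux1*, *Cux2* and *Fezf2*, factors of cortical layers, had limma differences of -0.51, -0.65 and -0.56, and *Nfia* and *Pou3f1* had 0.92 and 1.23. Cajal-Retzius markers summed to 1672 to 2836 in controls and 1984 to 2919 in mutants, those of oligodendrocyte precursors to 54.7 to 112 and 56.2 to 330, of microglia to 136 to 249.7 and 129.8 to 654, and of endothelium to 159.9 to 652 and 188 to 556. Erythroid markers ranged from 5983 to 58744 in controls and from 1835 to 20455 in mutants. Of 29 nuclear-retained and intron-retaining RNAs tested, 24 were below 0 (median -0.4) and 4 fell. *Wsb1* fell by 1.14 on the log2 scale, while *Malat1* differed by 0.66 and was not called. All 13 mitochondrial mRNAs were above 0 (median 0.3), with 0 called by limma, edgeR or DESeq2 and 2 at an unadjusted p under 0.05. The part of these RNAs in the results was not tested.

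Mutant 6, the mutant whose name is written like those of the controls, was set beside the other mutants. To leave it out of the choice of genes, the other 4 mutants were set against the controls without it, which gave 147 genes lower (0.879%) and 344 higher (2.06%). Of the 147, mutant 6 lay below all 4 controls in 137 (93.2%), as it did for 24.5% of all genes tested. Of the 344, it lay above all 4 controls in 220 (64%), as it did for 24.7% of all genes. Its median difference from the controls was -1.28 over the genes that fell, against -1.43 for the other mutants, and 0.48 over the genes that rose, against 1.22. A difference of at least 50% of that of the other mutants was seen in 117 of the 147 and in 153 of the 344. Both differences use the controls on which the genes were chosen, so the choice itself favours a difference in mutant 6. The shares of all genes do not account for that, and whether falls and rises differ in mutant 6 was not tested.

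**Figure D4:**
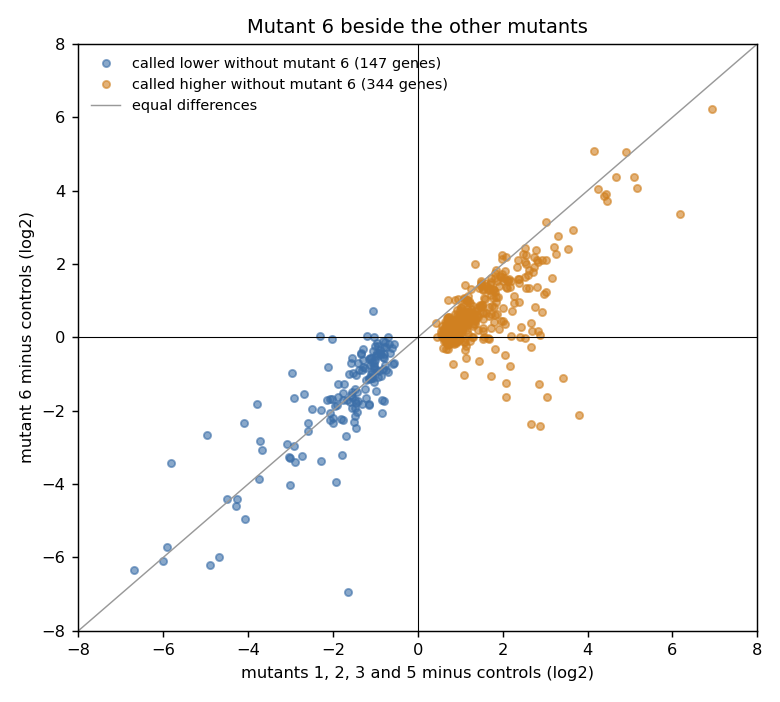
Log2 difference from the 4 controls in mutants 1, 2, 3 and 5 (x axis) and in mutant 6 (y axis) for the 147 genes that fell and the 344 that rose when mutant 6 was left out, with the line of equal differences. The genes that fell have medians of -1.43 and -1.28 on the axes, and those that rose have medians of 1.22 and 0.48.

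Set alone against the controls, and assuming that it varies like the other libraries, mutant 6 had 42 genes lower (0.251%) and 15 higher (0.0897%). Of these, 29 and 14 are among the 114 and 172 called with all mutants. Against the other 4 mutants, limma called 3 genes lower (0.0179%) and 0 higher (0%), and 1378 genes had an unadjusted p under 0.05 (8.24%). The 3 genes are *Plxdc2*, which encodes a membrane protein, and the unnamed *Gm19938* and *Gm38036*. *Plxdc2* had 98.1, 128, 157 and 109 in controls, 34.6, 24.1, 71.7 and 34.9 in mutants 1, 2, 3 and 5, and 0 in mutant 6. *Gm38036* also had 0 in mutant 6, against 37.6 to 43.3 in controls and 40.7 to 91.3 in the other mutants.

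Proliferation genes set mutant 6 further apart. Of the 32 cell cycle genes, 29 were higher in mutant 6 than in all 4 controls and 29 were higher there than in all 4 other mutants, against 24.7% and 18.2% of all genes tested. The list had a median of 0.97 above the controls in mutant 6 and -0.3 in the other mutants. *Mki67*, the proliferation antigen gene, had 525, 582, 575 and 741 in controls and 548, 912, 479, 534 and 1140.4 in mutants 1, 2, 3, 5 and 6. *Top2a*, a topoisomerase gene of dividing cells, had 1352, 1423, 1308 and 1649.7 in controls and 1075, 1918, 1099, 1245 and 3126 in mutants. Mutant 6 was the highest of the 9 libraries for both. All 9 radial glia markers tested were above all controls in mutant 6 (median 0.67, against -0.1 for the other mutants), as were 15 of 22 Notch genes. Of 12 interneuron markers, 6 lay below all controls in mutant 6 and 9 below all other mutants, against 24.5% and 19.4% of all genes tested. Of the 32 cell cycle genes, 24 had an unadjusted p under 0.05 between mutant 6 and the other mutants and 0 passed after adjustment. With all mutants together limma, edgeR and DESeq2 called 0 of the 32, and 1 had an unadjusted p under 0.05. The part of this difference in the other values of mutant 6 was not tested.

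**Figure D5:**
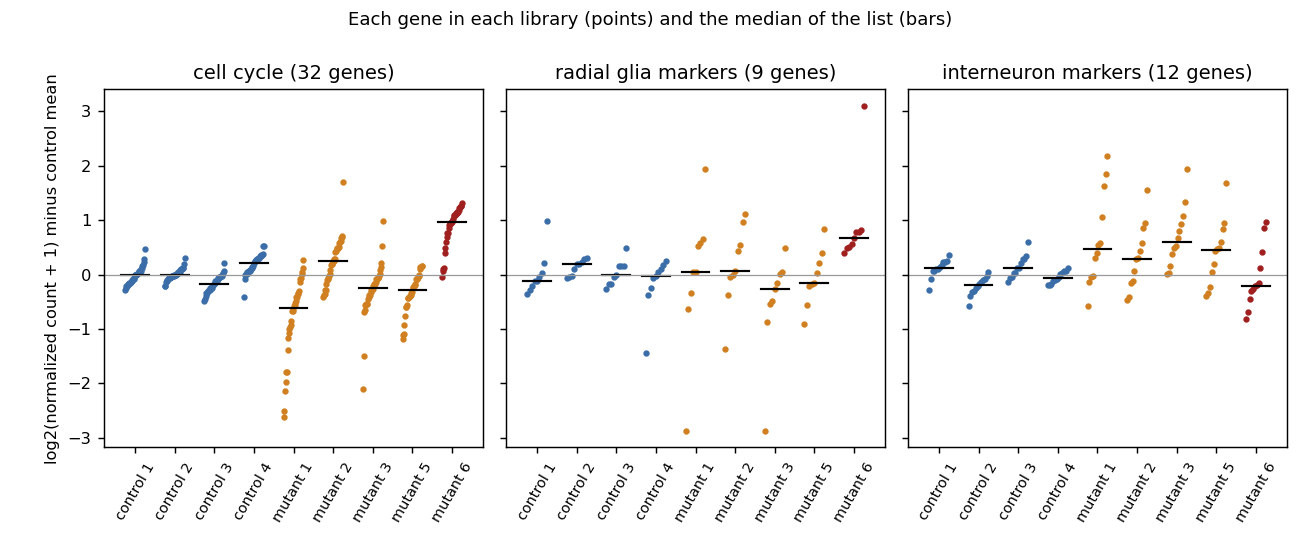
Log2(normalized count + 1) minus the control mean for each tested gene of 3 lists in each of the 9 libraries, with the median of the list as a bar. In mutant 6 the cell cycle genes have a median of 0.97, the radial glia markers one of 0.67 and the interneuron markers one of -0.21.

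The style of the names was also measured where no *Lhx6* library takes part. Among the *Mtg8* libraries, 3 have dated and 3 undated names, and the 3 dated names share their first part. Their date is not that of any *Lhx6* mutant. The size of a style difference among the *Lhx6* libraries was therefore not measured. The dated libraries are 2 controls and 1 mutant and the undated 1 control and 2 mutants, so the fit held the *Mtg8* group as a covariate. Between styles limma called 0 genes lower (0%) and 0 higher, 10.1% of 16132 genes had an unadjusted p under 0.05, and DESeq2 called 84 lower and 55 higher. Of the 113 genes that fell in *Lhx6* mutants and were tested there, 50 differed in the same direction between dated and undated libraries, with a median of 0.04, where 46.6% of all genes did. Of the 158 that rose, 108 did so, with a median of 0.2, where 53.4% of all genes did. The style difference reached 50% of the *Lhx6* difference for 6 of the 113 and 17 of the 158. It was 1.18 for *Bcl6* and 1.09 for *Adarb2*, against 2.68 and 4.33 in the *Lhx6* comparison. It was 0.1 for *Pbx3*, -0.03 for *Cxcl14* and -0.27 for *Sst*.

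Long genes were frequent among the calls. Protein-coding genes that rose spanned a median of 141.3 kb and those that fell 75.44 kb, against 25.49 kb for all protein-coding genes tested, and 59.6%, 39.4% and 15.8% of them exceeded 100 kb. Of the genes that rose, 10.5% were of the TEC class, transcripts still to be experimentally verified, against 4.45% of all genes tested. Of 40 called non-coding genes, 27 overlapped a tested protein-coding gene. For 18 of the 27 (66.7%) that gene was called in the same direction, and for 9 it was not called, among them *5330431K02Rik* in *Map1b* (1.24 and 0.15) and *5730507A11Rik* in *Nr6a1* (1.96 and -0.51). Of 1168 tested non-coding genes with such an overlap, 7.79% overlapped a called gene. *Gm48259* and *Gm48261*, on the strand of *Adarb2* and within it, lay at 0 to 1.77 and 0 to 0.921 in controls and at 12.4 to 166 and 22.3 to 83.3 in mutants, with mutant 6 the lowest mutant for both. *C79798*, within *Pbx3* on the other strand, rose by 4.21. Whether reads were counted by strand is not given in the sources used here, so such genes and their hosts may share reads.

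Chromosome 2, which carries *Lhx6*, held 20 of the 114 genes that fell (17.5%) and 17 of the 172 that rose (9.88%), against 8.04% of all genes tested. Most of the 20 lay far from *Lhx6*. Within 30 Mb of it, 3 other genes fell and 9 rose (2.63% and 5.23%, against 2.36% of all genes tested). Within 10 Mb, 1 fell and 5 rose (0.877% and 2.91%, against 1.19%). Within 5 Mb of *Lhx6*, 1 other gene fell and 4 rose (0.877% and 2.33%, against 0.664% of all genes tested). The gene that fell is *Gm13429* (difference -2.54), and those that rose are *Pbx3*, *C79798*, *Mvb12b* and *5730507A11Rik*, by 4.94, 4.21, 1.14 and 1.96. The call of *Mvb12b* was lost without control 1, 2 or 4 or mutant 2 or 5 and that of *5730507A11Rik* was lost without control 1, 3 or 4 or mutant 5, with adjusted p of up to 0.126 and 0.0606. On a mixed background, alleles linked to the mutation cannot be told apart from it in these counts.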

How the data were processed

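RNA came from cortical YFP+ cells, with 1 embryo behind each library, with cDNA made by the NEBNext low input kit. The methods name the Nextera XT kit for the libraries, which the labels do not mention. Libraries were read as 75-base single reads on a NextSeq 500. According to the labels and methods, the authors trimmed reads with fastp 0.20.1, aligned them to GRCm38.p6 with STAR 2.7b, counted them on GENCODE M23 genes with featureCounts 1.6.4 and filtered out sex-linked genes. The reason given in the methods is that the sexes were unevenly spread within control and mutant samples. Embryo sex entered no fit here, and its part in the remaining genes was not tested. The deposited values are a normalized signal, gene read counts divided by DESeq2's size factors, scaled separately in the *Lhx6* and *Mtg8* tables, so tests stayed within a table. The deposited exonic length of each gene was kept for reference. Columns of the authors' own comparisons (mean, fold change, standard error, Wald statistic, p-value and adjusted p-value) were not used. Whether counting used strand is not given in the sources used here.

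Genes with a mean of at least 10 normalized counts were tested with limma 3.58.1 (trend, R 4.3.3) on log2(normalized count + 1), which understates changes of low genes, with Benjamini-Hochberg adjustment over all genes tested. All p-values are two-sided. Dividing by the step of 1 read gave whole reads for 100% of values (tolerance 0.01), and on these edgeR 4.0.16 (quasi-likelihood) called 280 genes and DESeq2 1.42.0 called 756. Normalized values had been assumed when the test was chosen, and limma was kept as the main test. Libraries held 12218422 to 18110287 reads on genes. Standard errors are limma's, for the difference of group means, with each gene's variance between embryos drawn toward a trend over all genes. No counting intervals are given.

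Named genes are *Lhx6*, the 15 protein-coding genes per direction with the largest called and non-overlapping change, up to 4 called genes per direction in each role of each list, and key genes given whatever they did. Genes named outside this rule (such as *Cort*, *Tac1*, *Kcnc2*, *Reln*, *Axin2*, *Mki67*, *Plxdc2* and unnamed Gm genes) were chosen after their values were seen. The comparison, the lists and the tests were chosen with earlier results of these data known. Some items are not reported here and were left out of the lists and the named genes, but not out of the fits or the counts over all genes. Promoter windows come from RefSeq on GRCm38.p6. Alternatives changed the pseudocount, the minimum, the scaling, the test, the threshold, the library weights, a block on replicate numbers, a covariate for the style of library names and the libraries included. Leaving out mutants 1 and 3 was added after the data were seen. On counts simulated for this comparison with 16524 genes, limma recovered 56.1% of 98 genes changed by 1.5 and 85% of 100 genes changed by 3 on the log2 scale, with 3 unchanged genes among 143 calls. DESeq2 recovered 64.3% and 90%, with 33 unchanged genes among 186 calls. In the simulation each gene varied alike in all libraries, and name styles did not differ. The unequal library weights were not modelled, so recovery and false calls in the real libraries were not measured.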

Additional observations from a re-analysis of the deposited data

Results flagged for a closer look

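In 15 of 292 combinations of a named gene and a group (5.14%), 1 library lay far from the rest of its group. The share that chance alone would give was not measured. Among controls, control 4 was highest for *Cxcr4* at 652 normalized counts and for *Sst* at 12780.0. Control 3 was highest for *Grik2* at 687 and *Dkk2* at 3.68, where the other controls had 0. Control 1 was highest for *Negr1* at 1096 and *Gad1* at 3067, and control 2 was lowest for *Tgfb3* at 189. Among mutants, mutant 1 was highest for *Kcns3* at 35.9 and *Ldb1* at 1257 and lowest for *Ibsp* at 19.8. Mutant 2 was highest for *Isl1* at 962, against 16.1 to 34.9 in the other mutants, and lowest for *Prox1* at 11.1. Mutant 3 was highest for *Dlx1* at 19816. Mutant 6 was lowest for *Gad2* at 3191, against 4990 to 5551 in the other mutants, and for *Slc1a2* at 1056.

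Mutant 6 differed from mutants 1, 2, 3 and 5 beyond the limma threshold for *Plxdc2* (difference -5.29, adjusted p = 0.0137), *Gm19938* (difference -4.04, adjusted p = 0.012) and *Gm38036* (difference -6.04, adjusted p = 0.00774), with the single library assumed to vary like the others. The causes of these differences were not tested.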

How the results depend on the processing

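Of 124 named genes that were called, 0 changed direction in any alternative, 31 were called in every alternative that gave a value, and 87 in each fit that left out 1 library. The name style covariate lost 88 of the 124 calls and the replicate block 66. Of 22 named genes not called, 4 became called with DESeq2, 4 with library weights and 5 without mutants 1 and 3. Of all 286 calls, 144 were kept in each of those fits (54 lower, 90 higher). Lower calls then ranged from 55 without control 1 to 147 without mutant 6, and higher calls from 104 without control 1 to 344 without mutant 6, against 114 and 172. Without control 2, 3 or 4 the lower calls were 67, 63 and 66, and without control 2 or 4 the higher calls were 107 each. DESeq2 called 257 lower and 499 higher (284 of the 286 shared) and library weights gave 363 and 481. Without mutants 1 and 3, 200 genes were lower, and 249 of the 286 calls were kept. A covariate for name style, which leaves mutant 6 as the contrast, gave 42 and 15. Rises made up 60.1% of calls, 70.1% without mutant 6, 26.3% with that covariate and 50.7% without mutants 1 and 3. The median over all genes was -0.037, and -0.073 with TMM factors. The cause of these shifts was not tested.

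Replicate numbers did not pair the libraries. Deviations of the same-numbered control and mutant correlated across genes at -0.154, 0.00175 and 0.0717 for numbers 1, 2 and 3. With the replicate block, 37 genes were lower and 49 higher, 84 of these 86 among the 286. The block used 3 pairs and had fewer residual degrees of freedom.

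For mutant 6 against the controls, edgeR called 20 lower against 42 by limma, and DESeq2 91 lower and 67 higher. Against the other mutants, limma called 3 lower, 10 with a pseudocount of 0.5 and 0 with a pseudocount of 10, edgeR called 0, and DESeq2 called 55 lower and 29 higher, beside 1378 genes at an unadjusted p under 0.05. For name style in the *Mtg8* libraries, a pseudocount of 10 gave 1 lower and 1 higher and DESeq2 84 and 55.

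Signs turned only for genes that were not called. With TMM factors *Dlx2* was -0.02 and *Erbb4* -0.01. With library weights *Dlx1* was -0.01, *Dlx2* -0.19 and *Erbb4* -0.01. Without mutants 1 and 3 they were -0.08, -0.25 and -0.19 for *Dlx1*, *Dlx2* and *Erbb4*. With the name style covariate *Dlx1* was -0.15, *Dlx2* -0.26, *Erbb4* -0.82, *Gad2* -0.21, *Maf* -0.46, *Nkx2-1* -0.3, *Cbfa2t2* 0.46 and *Prox1* 0.34. Leaving out 1 library moved *Dlx1* from -0.09 to 0.18, *Dlx2* from -0.11 to 0.11, *Erbb4* from -0.11 to 0.24 and *Isl1* from -0.23 to 1.78.

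Genes with a mean under 10, such as *Cdh20* and *Cdh9*, lay under the minimum set here and were not tested in the main fit. Name style and genotype cannot be told apart among mutants 1, 2, 3 and 5.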
